A study of Mus musculus with 4 samples.

Results

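The prostaglandin genes were 10 genes along the path of prostaglandin synthesis, breakdown and reception, described here in cultured mouse mammary tumour cells exposed to GSK126 or to its vehicle. They were Pla2g4a, Ptgs1, Ptgs2, Ptges, Ptges2, Ptges3, Ptgds, Hpgd, Ptger2 and Ptger4. They were chosen by symbol from the pathway around Ptgs2, a gene already known to be higher with GSK126 on these same arrays, and each was read from the probe set with the highest mean that carried its symbol alone. Of the 10 genes, 9 were measured among 22180 named genes, each by 1 probe set. Ptgs1, which encodes the constitutive cyclooxygenase, had no probe set under its symbol alone and is not analysed here. Since the values on these arrays chose Ptgs2, its difference and those of the other prostaglandin genes are given as a description. Where a limma call of one of them is stated, it is no independent test.

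The treated group was 2 arrays of cells kept in 2 µM GSK126 for 96 h, and the controls were 2 arrays of cells kept in the vehicle DMSO for 96 h. GSK126 inhibits EZH2, the enzyme that trimethylates lysine 27 of histone H3. Both groups are cell lines established from MMTV-NIC tumours (female, FVB strain), in which the mouse mammary tumour virus promoter drives ErbB2 and the recombinase Cre from a single transcript. The culture medium of both groups held serum, epidermal growth factor, hydrocortisone, insulin and pituitary extract, and glucocorticoids such as hydrocortisone are known to hold back Ptgs2. The labels do not say whether the 2 arrays of a group come from separate cultures or separate lines, so p-values here measure the spread between arrays alone, and that spread may be technical.

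Prostaglandins are lipid signals made from arachidonic acid. A phospholipase frees the acid from membranes, the cyclooxygenases convert it to the unstable prostaglandin H2, and terminal synthases turn that into prostaglandin E2, D2, F2α or prostacyclin. The inducible cyclooxygenase, encoded by Ptgs2, is found in many mammary tumours, and prostaglandin E2 made through it acts on neighbouring cells through receptors of the EP family. Uptake by a carrier and oxidation by the dehydrogenase encoded by Hpgd end the signal.

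The promoters of 3 of these genes are shown because they carry the comparison: Ptgs2, which differed most, Pla2g4a, its next protein-coding neighbour on mouse chromosome 1, and Ptges, whose enzyme acts next after that of Ptgs2. Each runs 5′ to 3′ on the gene's strand, from 250 bases before the most upstream annotated start site to 50 bases after it (RefSeq, GRCm38.p6). Capitals mark matches to the motifs named in the next paragraph.
Ptgs2, chr1:150099781-150100080, plus strand: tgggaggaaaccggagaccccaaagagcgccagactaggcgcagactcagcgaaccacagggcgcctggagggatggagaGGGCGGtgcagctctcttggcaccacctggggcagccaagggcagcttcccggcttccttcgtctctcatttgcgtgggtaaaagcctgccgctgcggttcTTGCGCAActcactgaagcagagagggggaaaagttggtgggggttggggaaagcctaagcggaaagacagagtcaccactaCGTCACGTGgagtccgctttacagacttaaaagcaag
Pla2g4a, chr1:149961241-149961540, minus strand: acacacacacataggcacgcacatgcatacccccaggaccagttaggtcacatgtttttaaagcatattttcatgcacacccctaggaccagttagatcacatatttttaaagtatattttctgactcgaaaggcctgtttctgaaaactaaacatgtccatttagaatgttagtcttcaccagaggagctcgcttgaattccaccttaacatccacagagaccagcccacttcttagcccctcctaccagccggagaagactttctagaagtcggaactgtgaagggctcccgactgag
Ptges, chr2:30903248-30903547, minus strand: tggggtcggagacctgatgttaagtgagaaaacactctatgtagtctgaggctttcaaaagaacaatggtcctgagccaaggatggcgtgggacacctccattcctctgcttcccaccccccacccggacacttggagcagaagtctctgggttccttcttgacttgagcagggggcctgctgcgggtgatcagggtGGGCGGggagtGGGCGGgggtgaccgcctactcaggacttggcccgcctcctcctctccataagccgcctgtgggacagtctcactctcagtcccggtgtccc

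The motifs searched, on both strands, were the core of a cAMP response element (CGTCA), the full element (TGACGTCA), a palindrome bound by C/EBP factors (TTGCGCAA), the E-box (CACGTG), the TATA box (TATAAA) and the GC box (GGGCGG). The Ptgs2 window held the C/EBP palindrome from base -69 to -62, which 0.189% of 27025 mouse promoter windows held. These positions count from the most upstream annotated start site, and other start sites were not examined. At bases 14 to 18, after that site, the window also held the core of the cAMP response element, present in 20.9% of windows. The last 2 bases of that core overlap an E-box at bases 17 to 22, a motif present in 7.24% of windows. A GC box, found in 35.9% of windows, stood at -170 to -165 of Ptgs2, and 2 GC boxes stood in the Ptges window. The Pla2g4a window held none of these motifs. The full cAMP response element was in 1.85% of windows and the TATA box in 14.2%, and neither was in the windows shown. The Ptgs2 window held 16 CpG dinucleotides, that of Ptges 10 and that of Pla2g4a 6, against a median of 7 over all windows. Over the 9 measured genes the ratio of observed to expected CpG ran from 0.0804 for Ptgds to 1.14 for Ptges3, with 0.617 for Ptgs2 and a median of 0.389 for all promoters. A match to these letters is a description and not a binding site, and H3K27me3 was not measured in these files.

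Ptgs2 was higher on both GSK126 arrays than on either DMSO array. Its log2 expression value was 7.91 and 8.21 with GSK126 against 6.64 and 6.75 with DMSO. The groups were separated by 1.17, whereas the 2 arrays within a group differed by 0.299 with GSK126 and by 0.11 with DMSO. The means were 8.06 ± 0.21 with GSK126 and 6.69 ± 0.077 with DMSO (SD, n = 2 each), a difference of 1.37 (SE 0.12) or 2.59-fold. This was the 12th largest increase of the 22180 genes. It was the single prostaglandin gene among the 96 genes that passed an adjusted p of 0.05 in limma, which were 0.433% of all genes, and nothing is read from that count because Ptgs2 was chosen from this contrast. The difference was 1.52 without GSK126 replicate 1, 1.22 without GSK126 replicate 2, 1.32 without DMSO replicate 1 and 1.43 without DMSO replicate 2. In those fits 1 residual degree of freedom remains, so a lost call says little about a single gene. Ptgs2 did not pass with a prior variance that does not follow intensity, or with all probe sets tested, where the difference was the same.

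**Figure D1:**
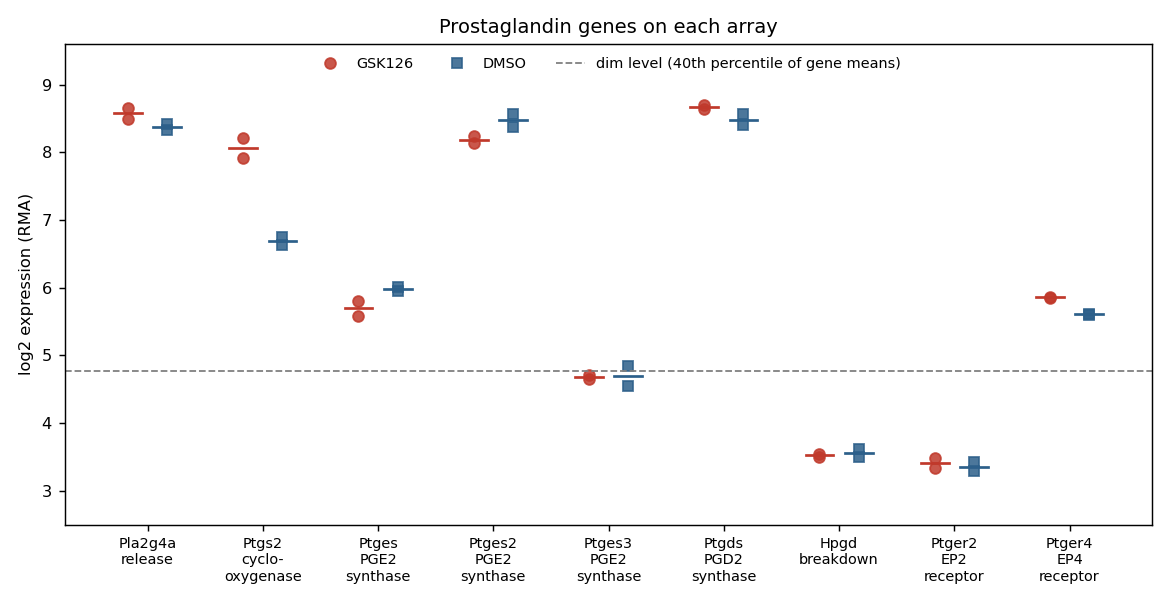
Log2 expression of the 9 measured prostaglandin genes on each array, with GSK126 arrays as circles on the left and DMSO arrays as squares on the right of each gene, horizontal bars for the mean of 2 arrays, and a dashed line at 4.77, below which a gene is called dim. Ptgs2 stands at 7.91 and 8.21 with GSK126 against 6.64 and 6.75 with DMSO, while the group means of the other genes differ by between -0.28 and 0.25.

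The phospholipase gene upstream of Ptgs2 was a little higher with GSK126. Pla2g4a encodes the cytosolic phospholipase A2 that frees arachidonic acid from membranes. Its log2 value was 8.66 and 8.498 with GSK126 against 8.33 and 8.42 with DMSO. The groups did not overlap, but the gap of 0.079 between them was smaller than the 0.16 between the 2 GSK126 arrays. The difference of the means was 0.21 (SE 0.096), or 1.15-fold, and it was 0.12 when GSK126 replicate 1 was left out and 0.29 when GSK126 replicate 2 was. A larger difference in either direction was seen in 29.0% of all genes.

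Of the synthases that act after Ptgs2, Ptges and Ptges2 were lower with GSK126. Ptges encodes the microsomal prostaglandin E synthase, an enzyme often induced together with Ptgs2. It was at 5.802 and 5.59 with GSK126 against 5.95 and 6.003 with DMSO. Both GSK126 values lay below both DMSO values, the opposite direction to Ptgs2, with a difference of -0.28 (SE 0.13), or 1.21-fold lower, and a gap of 0.14 against 0.21 between the GSK126 arrays. Without GSK126 replicate 2 the difference was -0.17, and without GSK126 replicate 1 it was -0.39. Ptges2, which encodes a further, constitutive membrane-associated prostaglandin E synthase, was at 8.24 and 8.14 with GSK126 against 8.38 and 8.57 with DMSO. Both GSK126 values again lay below both DMSO values, by 0.14 against 0.19 between the DMSO arrays, and the difference was -0.28 (SE 0.100), with -0.38 to -0.19 when 1 array was left out.

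Ptges3 encodes the cytosolic prostaglandin E synthase, also known as the HSP90 co-chaperone p23. Its probe set was dim in both groups, at 4.71 and 4.65 with GSK126 against 4.55 and 4.84 with DMSO. The GSK126 values lay inside the DMSO range, and the difference of -0.0095 (SE 0.16) was 0.14 when DMSO replicate 2 was left out and 0.023 when GSK126 replicate 2 was. A further 2 probe sets carried Ptges3 together with its pseudogene and were not used for the gene. In the fit of all probe sets these differed by -0.044 (SE 0.085) and by 0.020 (SE 0.11). The first had means of 7.91 with GSK126 and 7.96 with DMSO, the second 10.92 and 10.90, all above the dim level. The dim probe set therefore does not show that Ptges3 RNA was scarce in these cells. Ptgds, whose product makes prostaglandin D2 and also carries lipophilic molecules outside cells, was at 8.701 and 8.64 with GSK126 against 8.57 and 8.397 with DMSO. Its groups did not overlap, by a gap of 0.073 against 0.17 between the DMSO arrays, and the difference was 0.19 (SE 0.095), or 1.14-fold. It was 0.103 when DMSO replicate 2 was left out and 0.27 when DMSO replicate 1 was.

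The gene of the enzyme that inactivates prostaglandins was dim in both groups. Hpgd, whose dehydrogenase oxidises prostaglandin E2 to a form with little activity at its receptors, was at 3.55 and 3.501 with GSK126 against 3.61 and 3.502 with DMSO. The groups overlapped, with a difference of -0.033 (SE 0.17) that was 0.023 without DMSO replicate 1. At such a level the array may not follow a change in the RNA.

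Of the receptor genes, Ptger4 was slightly higher with GSK126 and Ptger2 was dim. Both receptors, EP4 and EP2, bind prostaglandin E2 and raise cyclic AMP in the cell. Ptger4 was at 5.87 and 5.85 with GSK126 against 5.61 and 5.601 with DMSO, so the arrays within a group differed by 0.023 and 0.0077. The groups did not overlap, and the difference of 0.25 was 1.19-fold. It ran from 0.24 to 0.26 when 1 array was left out and was 0.20 when arrays were centred on their medians. Its fitted SE of 0.12 is larger than the spread of these 4 values gives, because the fit draws each gene's variance towards that of genes of like level. Ptger2 was at 3.48 and 3.34 with GSK126 against 3.29 and 3.43 with DMSO. These values overlapped, and the difference of 0.055 (SE 0.17) was -0.016 without DMSO replicate 1 and -0.017 without GSK126 replicate 1.

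Of the 9 prostaglandin genes, 4 had both GSK126 values above both DMSO values, 2 had them below and 3 overlapped. The groups did not overlap for 40.1% of all genes, 18.2% above and 21.8% below, and nothing is read from the count of prostaglandin genes. Apart from Ptgs2, 4 of the 8 were higher and 4 lower in their means, with a median difference of 0.023 against -0.0077 over all genes. In limma 0 of these 8 passed and 1 had an unadjusted p under 0.05, as did 10.6% of all genes in either direction. The plot of the differences under several settings shows how far each value moves.

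**Figure D2:**
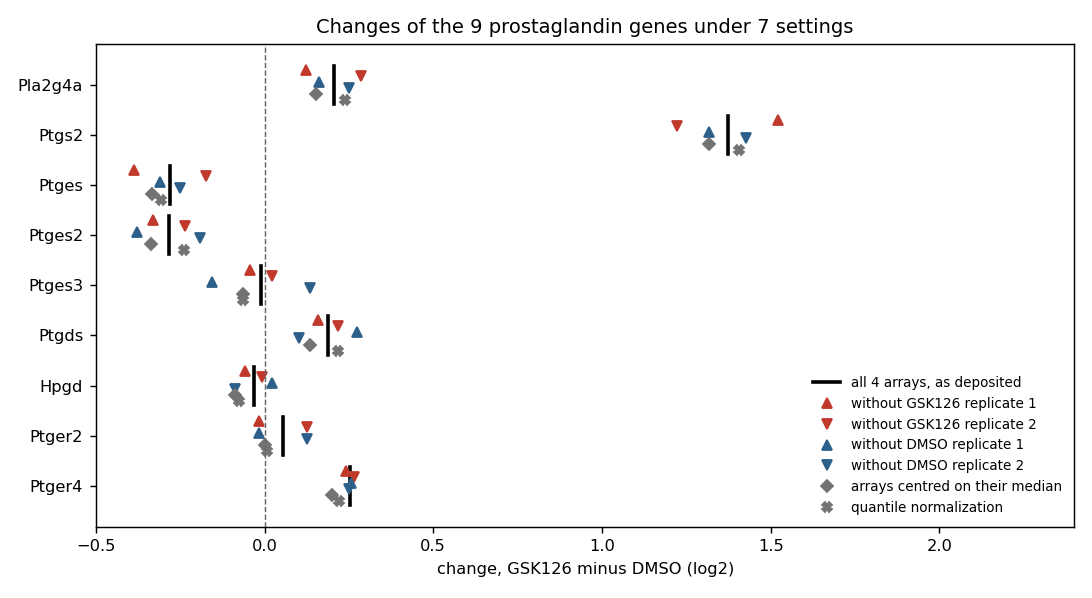
Difference between GSK126 and DMSO (log2, x axis) for each of the 9 prostaglandin genes with all 4 arrays as deposited (black bars), with 1 array left out (triangles), with arrays centred on their median (diamonds) and after quantile normalization (crosses). Ptgs2 lies between 1.22 and 1.52 throughout, whereas Ptges3, Hpgd and Ptger2 lie on both sides of 0.

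The wider eicosanoid pathway was read from 5 lists with 51 genes, of which 45 were measured. In limma 0 of these 45 had an adjusted p under 0.05, and 3 had an unadjusted p under 0.05, all with a higher mean in GSK126 cells. At that unadjusted level 10.6% of all genes passed in either direction, the share against which this count and those of the lists that follow are to be read. By mean, 29 were higher and 16 lower, with a median difference of 0.054. The groups did not overlap for 17 of 45 genes, against 40.1% of all genes.

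Akr1c18 had the largest difference among them. It encodes a mouse aldo-keto reductase that breaks down progesterone and also has prostaglandin F synthase activity. Its log2 values were 5.11 and 5.62 with GSK126 against 4.64 and 4.05 with DMSO, where the gene was dim. Both GSK126 values lay above both DMSO values, but the arrays within each group differed by 0.51 and 0.59, and the difference of 1.02 (SE 0.25, 95% interval 0.45 to 1.596) did not pass (adjusted p = 0.208 in limma). It ran from 0.73 to 1.32 when 1 array was left out. Among the other prostanoid synthase genes, the thromboxane synthase gene Tbxas1, dim in both groups, differed by -0.13, SE 0.15, and Prxl2b, which encodes a prostamide and prostaglandin F synthase, by 0.100, SE 0.15.

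Of the other prostanoid receptor genes, 4 of the 5 measured had both GSK126 values above both DMSO values, as did 18.2% of all genes, and 0 of 5 passed in limma (1 at an unadjusted p under 0.05, against 10.6% of all genes). Ptgfr, the receptor gene for prostaglandin F2α, was at 5.36 and 5.26 with GSK126 against 5.03 and 4.73 with DMSO, a difference of 0.43 (95% interval 0.062 to 0.797, adjusted p = 0.409 in limma). It was 0.28 when DMSO replicate 2 was left out and 0.58 when DMSO replicate 1 was. Ptger3, the EP3 receptor gene, was dim in both groups, with a difference of 0.34 and an interval from -0.024 to 0.71. The prostacyclin receptor gene Ptgir differed by 0.16, with an interval from -0.15 to 0.47, and by 0.093 without DMSO replicate 2.

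All 5 measured genes of prostaglandin transport and further breakdown had a lower mean with GSK126, as did 11528 of all 22180 genes. Their median difference was only -0.029, the furthest being Zadh2 at -0.14, and 0 of 5 passed in limma or had an unadjusted p under 0.05. Slco2a1, the prostaglandin uptake carrier, was at 11.54 and 11.34 with GSK126 against 11.56 and 11.37 with DMSO. Its groups overlapped, the difference was -0.029 with a 95% interval from -0.27 to 0.22, and it was 0.067 when DMSO replicate 1 was left out and 0.071 when GSK126 replicate 2 was. The reductase gene Zadh2, also named prostaglandin reductase 3, differed by -0.14, SE 0.096. The reductase gene Ptgr2 differed by -0.13, SE 0.14, which was 0.075 without DMSO replicate 1.

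Of 17 measured genes of arachidonate release, 0 passed in limma and 0 had an unadjusted p under 0.05. Those with the smallest p were Pla2g4c, a membrane-bound relative of Pla2g4a (0.28, SE 0.14), and the secreted phospholipase genes Pla2g2f (0.36, SE 0.19, dim in both groups) and Pla2g2e (0.15, SE 0.12). In the lipoxygenase and leukotriene branch, the competing use of arachidonic acid, 0 of 12 passed in limma, and Aloxe3, an epidermal lipoxygenase gene, was the 1 gene with an unadjusted p under 0.05. Aloxe3 was at 5.17 and 5.08 with GSK126 against 4.66 and 4.75 with DMSO, where it was dim (adjusted p = 0.384 in limma). Alox12b, which acts together with Aloxe3 in skin, was at 4.57 and 5.17 with GSK126 against 4.47 and 4.46 with DMSO. A single array carried most of that, since the difference of 0.41 was 0.71 without GSK126 replicate 1 and 0.11 without GSK126 replicate 2. Ltc4s, the leukotriene C4 synthase gene, differed by 0.31, SE 0.17, which ran from 0.13 to 0.499 when 1 array was left out, lowest without GSK126 replicate 2.

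**Figure D3:**
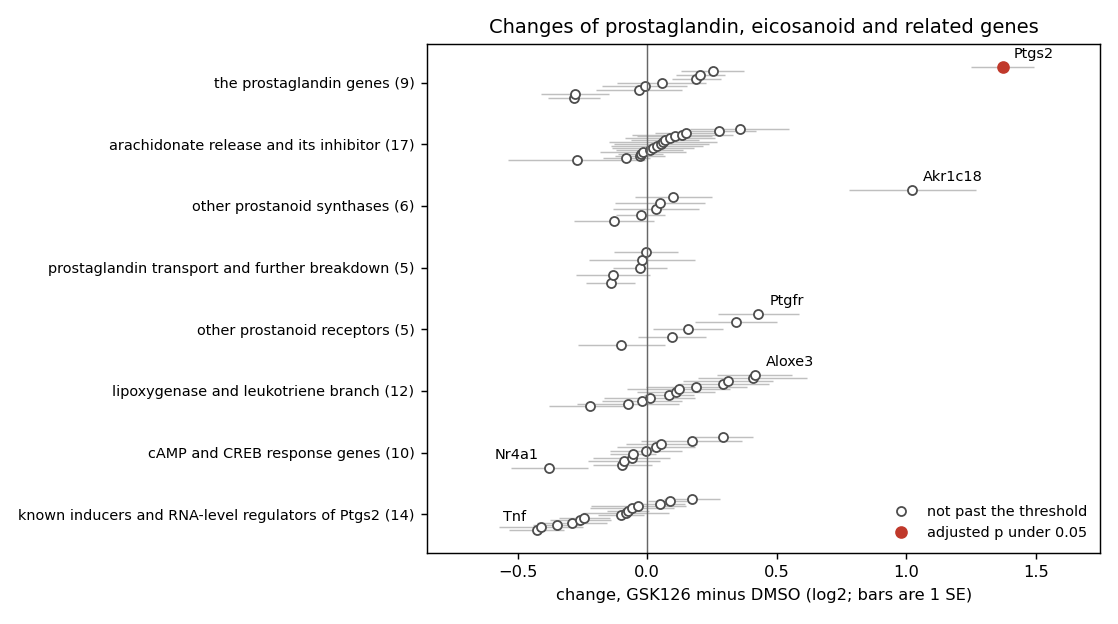
Difference between GSK126 and DMSO (log2, x axis, bars are 1 SE) for each measured gene, grouped by list with the number of genes in brackets. Ptgs2, at 1.37 and chosen from this contrast, is the single filled point (adjusted p under 0.05 in limma). Akr1c18, at 1.02, is the next largest but did not pass.

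Genes that answer to cyclic AMP, the messenger raised by EP2 and EP4, held 0 of 10 that passed in limma, a median difference of -0.030 and 2 genes at an unadjusted p under 0.05 (10.6% of all genes), Fos and Nr4a1. The immediate early gene Fos was at 6.63 and 6.69 with GSK126 against 6.44 and 6.29 with DMSO (0.29, SE 0.11, adjusted p = 0.425 in limma). The nuclear receptor gene Nr4a1 was at 7.48 and 7.41 with GSK126 against 8.06 and 7.599 with DMSO (-0.38, SE 0.15, adjusted p = 0.436 in limma). These 2 genes lay in opposite directions, each with groups that did not overlap, and the difference of Nr4a1 was -0.15 when DMSO replicate 1 was left out and -0.61 when DMSO replicate 2 was. Nr4a3, a relative of Nr4a1, was dim in both groups and differed by 0.17, SE 0.19.

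Of 14 measured inducers and RNA-level regulators of Ptgs2, 11 had a lower and 3 a higher mean with GSK126, with a median difference of -0.092. Over all 22180 genes, 11528 had a lower mean. The list holds genes that raise Ptgs2 and genes that restrain it, so nothing about Ptgs2 is read from these directions. In limma 0 of 14 passed, and 4 had an unadjusted p under 0.05, all of them lower, where 10.6% of all genes had one in either direction. Tnf, an inflammatory cytokine that induces Ptgs2, was at 8.08 and 8.27 with GSK126 against 8.68 and 8.52 with DMSO (-0.43, 95% interval -0.67 to -0.18, adjusted p = 0.222 in limma). Cebpb, whose product is a C/EBP factor, was at 8.67 and 8.52 with GSK126 against 8.901 and 8.99 with DMSO (-0.35, SE 0.093, adjusted p = 0.259 in limma). Its relative Cebpd differed by -0.41, SE 0.16, which was -0.198 without DMSO replicate 1 and -0.62 without DMSO replicate 2. These 3 genes were named for having the smallest p in the list, and in each both GSK126 values lay below both DMSO values. Of the 14, 9 lay so and 2 lay the other way, against 21.8% and 18.2% of all genes.

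The neighbours of Ptgs2 on mouse chromosome 1 were taken by RefSeq order, after the values had been seen, because Pla2g4a is the next protein-coding gene on one side. On the other side the next is Pdc, which encodes the photoreceptor protein phosducin and was dim in both groups (0.16, SE 0.16). The 3 nearest measured genes on each side, Pla2g4a among them, differed by between 0.066 for Odr4 and 0.21 for Pla2g4a, and 0 of these 6 passed in limma or had an unadjusted p under 0.05. Of the 6, 4 (Brinp3, Rgs18, Pdc and Prg4) were dim in both groups. At that level the array may not follow a change.

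The genes whose pattern over the 4 arrays was nearest to that of Ptgs2 were Golm2, Gpx8, Ifit1, Ctla2a and Maoa. Likeness was the root mean square difference between the 4 array values, each centred on the gene's own mean, and it ran from 0.0953 for Golm2 to 0.118 for Maoa on the log2 scale. The differences were 1.19 for Golm2, 1.31 for the glutathione peroxidase gene Gpx8, 1.48 for the interferon-induced gene Ifit1, 1.16 for Ctla2a and 1.14 for the monoamine oxidase gene Maoa. With 4 arrays in 2 groups, a pattern is little more than the size of the difference, and likeness is given as a description.

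**Figure D4:**
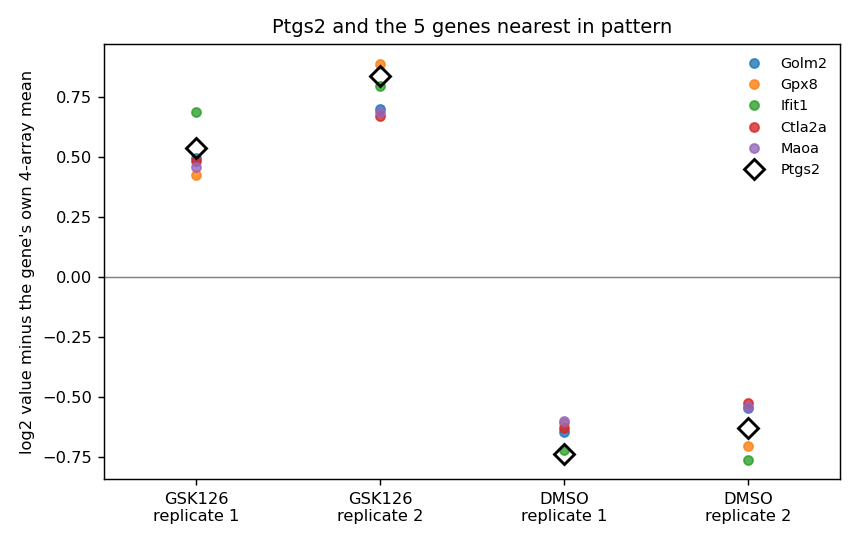
Log2 values of Ptgs2 (open diamonds) and of the 5 genes nearest to it in pattern (filled circles), each minus the gene's own mean over the 4 arrays, on each array. All 6 genes lie above 0 on both GSK126 arrays and below 0 on both DMSO arrays.

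Markers of other cell types were examined because macrophages and mast cells also make prostaglandins, and in bulk RNA fewer cells of a type and less RNA per cell cannot be told apart. Of 8 luminal epithelial markers 7 were above the dim level in both groups and Krt19 was dim with GSK126. Krt18 was the brightest, with a difference of 0.0083, SE 0.081, and 0 of 8 passed in limma (2 at an unadjusted p under 0.05, in opposite directions). Cd68, a lysosomal protein of macrophages, rose beside Ptgs2, at 9.16 and 9.12 with GSK126 against 8.201 and 8.08 with DMSO (adjusted p = 0.01 in limma), the 1 of 10 macrophage markers that passed. The difference of Cd68 was 0.94 to 1.06 when 1 array was left out, where 1 residual degree of freedom remains and few genes passed. Its call was lost with the replicate number as a block (adjusted p = 0.0614 in limma) and held in 5 of 12 alternatives. The mean over the other 9 macrophage markers was 5.11 and 5.09 with GSK126 and 5.08 and 5.14 with DMSO, and Adgre1, Lyz2, Itgam, Mrc1, Fcgr1 and Cd163 were dim in both groups. Cd14, the brightest of them, differed by 0.11, SE 0.091.

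Mcpt8, a protease gene of basophils, also rose, at 9.64 and 9.91 with GSK126 against 7.11 and 6.75 with DMSO (adjusted p = 0.000911 in limma), the 1 of 9 mast cell and basophil markers that passed. Its call held in 8 of 12 alternatives. The difference of Mcpt8 ran from 2.66 to 3.02 when 1 array was left out, where 1 residual degree of freedom remains. The mean over the other 8 markers was 3.996 and 4.07 with GSK126 and 3.95 and 3.95 with DMSO. Of those 8 markers 7, including Cpa3, Fcer1a and Ms4a2, were dim in both groups. Kit, the brightest of those 8 and also a gene of mammary luminal progenitors, differed by 0.020, SE 0.095. Of 6 basal and myoepithelial markers Oxtr, the oxytocin receptor gene and the brightest of them, fell (-0.75, SE 0.11, adjusted p = 0.0479 in limma). The mean over the other 5 was 5.22 and 5.12 with GSK126 and 5.09 and 5.28 with DMSO, and Krt17 and Trp63 were dim in both groups. By mean 3 of the 6 were higher and 3 lower, and 2 of the lower ones had an unadjusted p under 0.05. The difference of Oxtr was -0.83 to -0.68 when 1 array was left out, where 1 residual degree of freedom remains and few genes passed. Its call was lost with the replicate number as a block (adjusted p = 0.144 in limma) and held in 5 of 12 alternatives. Fibroblast, endothelial, and lymphocyte and platelet markers held 0 calls in limma among 8, 7 and 8 genes, with 2, 0 and 0 at an unadjusted p under 0.05, and their brightest genes Col1a1, Kdr and Gp9 differed by -0.12, 0.13 and -0.28. Of these, 2 fibroblast, 4 endothelial and 6 lymphocyte and platelet markers were dim in both groups, Ptprc among the last 6. What part other cells had in the difference of Ptgs2 was not tested.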

How the data were processed

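RNA from 2 GSK126 and 2 DMSO samples was hybridised to 4 Affymetrix mouse arrays, 1 colour each. The deposited values are log2 expression values made by the authors with the RMA method at core-exon level (Expression Console), per the labels. Affymetrix Power Tools is named in the submitters' processing notes, without a version. The genome build: not given in the sources used here. Values were used as deposited. Array medians were 4.79 and 4.78 for GSK126 and 4.74 and 4.73 for DMSO. Correlations between arrays were 0.981 to 0.988, the 3 lowest being those of GSK126 replicate 2. GSK126 replicate 1 correlated at 0.987 and 0.986 with DMSO replicates 1 and 2, above its 0.981 with GSK126 replicate 2. By this measure the 2 GSK126 arrays were not the most alike. For arrays, their number limits the precision.

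Of 41345 probe sets, 23521 carried 1 symbol in the platform annotation, 1814 several and 16010 none. Entrez identifiers matched 23328 probe sets to RefSeq, and 0 symbols changed. Each of 22180 genes was represented by its probe set with the highest mean. GSK126 minus DMSO was fitted with limma 3.58.1 in R 4.3.3 over all genes, with an intensity trend in the prior variance and Benjamini-Hochberg adjustment (two-sided, threshold 0.05, 2 residual and 5.57 prior degrees of freedom), and the procedure was tested on simulated data. A gene is called dim below 4.77, the level under which 40% of genes lie by mean. The members and lists were chosen with earlier results of these data known. The text names all members, any called gene and up to 3 genes with the smallest p in each pathway or context list, the markers that passed or were brightest, and the 5 genes nearest to Ptgs2 in pattern. The fit was repeated with no trend, with a robust prior, without dim genes, with averaged or with all probe sets, with other scalings, with a replicate block and without each array.

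The labels share replicate numbers between groups but do not say that these pair arrays.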

Additional observations from a re-analysis of the deposited data

How the results depend on the processing

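The difference of Ptgs2 ran from 1.22 to 1.52 over the 12 alternatives. Only leaving out 1 array, centring the arrays and quantile normalization could move it. The other alternatives leave the difference of Ptgs2 the same by construction, so they say nothing about how stable it is. Ptgs2 was the single prostaglandin gene past the threshold in 6 of the 12 alternatives, the replicate block among these 6. The count of prostaglandin genes past it was 0 in limma without the intensity trend (1 at an unadjusted p under 0.05), 0 when every probe set entered the fit (2) and 0 to 0 when 1 array was left out (1 to 3). Over all genes, 96 calls became 0 without the trend (1964 at an unadjusted p under 0.05), 0 of 41345 probe sets (2921), 149 without dim genes, 10 with the replicate block and 0 to 4 when 1 array was left out (1771 to 2100). Same-numbered arrays' deviations from their group means correlated at -0.025 over genes, so the numbers are not taken as pairs. Without 1 array, 1 residual degree of freedom remains and the lone array is assumed to vary like the other group. The other eicosanoid genes and the context genes had 0 calls in limma under all 12 alternatives, with 2 to 4 and 1 to 7 genes at an unadjusted p under 0.05. The 5 genes nearest to Ptgs2 in pattern passed in 5 to 7 of the 12, and Mcpt8 in 8. Leaving out 1 array turned signs of values near 0. Ptges3 ranged from -0.15 to 0.14, Hpgd from -0.088 to 0.023, Ptger2 from -0.017 to 0.13, Ptgr2 from -0.34 to 0.075, Slco2a1 from -0.13 to 0.071, Krt18 from -0.033 to 0.049, Kit from -0.063 to 0.104, Kdr from -0.18 to 0.44, Brinp3 from -0.014 to 0.17, Odr4 from -0.039 to 0.17 and Prg4 from -0.057 to 0.24. Krt18 was also -0.076 with averaged probe sets, -0.045 with centred arrays and -0.0059 after quantile normalization, and Kit was -0.033 with centred arrays. Leaving out 1 array also moved other uncalled values by over 1.5 times: Pla2g2f ran from 0.17 to 0.54, Tbxas1 from -0.19 to -0.063, Prxl2b from 0.043 to 0.16, Zadh2 from -0.19 to -0.091, Nr4a3 from 0.0055 to 0.34, Cd14 from 0.033 to 0.18, Col1a1 from -0.198 to -0.051, Gp9 from -0.45 to -0.103, Rgs18 from 0.016 to 0.22 and Pdc from 0.070 to 0.25. Likewise, Tnf ran from -0.52 to -0.33, Cebpb from -0.43 to -0.27 and Fos from 0.22 to 0.37. Pla2g4c ran from 0.20 to 0.35, Ptger3 from 0.24 to 0.45 and Ptgir from 0.093 to 0.22. The causes were not tested.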
